A study of Mus musculus with 11 samples.

Results

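The RNA levels of 7 genes of the RAS pathway, Ptpn11, Nras, Hras, Nf1, Braf, Map2k1 and Mapk3, were followed across normal, Ebf1 heterozygous and leukemic mouse B lineage cells. The genes were taken by name, as 7 of the 23071 identifiers in the deposited table, and all 7 passed the minimum level for testing in every comparison. Leukemia libraries (n = 5) came from lymph nodes of single Pax5+/- x Ebf1+/- mice, which carry 1 functional copy of each of these B lineage transcription factors. Ebf1+/- libraries (n = 3, pools of 3, 6 and 7 mice) and wild-type (WT) libraries (n = 3, pools of 3, 7 and 6 mice) came from bone marrow progenitor B cells purified on columns, and all mice were C57BL/6. The labels give no age or sex for the mice and no Pax5+/- group or non-leukemic Pax5+/- x Ebf1+/- group was among the samples used here. Genotype, leukemic state, tissue, purification and pooling therefore differ together between the leukemias and both progenitor groups and cannot be told apart.

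RAS proteins are small GTPases that pass signals from cytokine and antigen receptors while they hold GTP. Exchange factors load them with GTP, and GTPase-activating proteins such as neurofibromin, the product of Nf1, return them to the inactive state. Active RAS recruits RAF kinases, which phosphorylate the MEK kinases, which in turn phosphorylate the ERK kinases that enter the nucleus. In B progenitors this cascade acts downstream of the pre-B cell receptor, and mutations that activate it recur in B cell acute lymphoblastic leukemia. RNA levels report neither such mutations nor the amount of GTP-bound RAS or phosphorylated kinase.

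Levels are in FPKM, fragments per kilobase of transcript, scaled to the reads counted in a library. Because the values were whole reads divided by a length and a library total, the reads behind each could be recovered. Library totals were 8.51 to 15.31 in units of 1e6 reads, and a library held between 226 reads (Nf1, leukemia replicate 1) and 6244 reads (Ptpn11, Ebf1+/- replicate 3) of any of the 7 genes. Differences are log2 fold changes of FPKM + 1 from limma, which understate the change of low genes, and a gene is called at an adjusted p under 0.05 after Benjamini-Hochberg adjustment over all genes tested. All libraries contained RNA of the B lineage, since 12 summed B progenitor markers reached 3760 to 5580 FPKM in leukemias, 2760 to 7880 in Ebf1+/- and 3880 to 6550 in WT cells. Of these, limma called Vpreb1 and Igll1 higher and Cd24a, Cd79b and Rag2 lower in leukemia than in WT, with 7 of 12 not called. Against Ebf1+/- cells Il7r was called higher and Cd24a lower, with 10 of 12 not called. Of all genes 44.8% were called against WT and 21.6% against Ebf1+/-. The leukemias held far less RNA of granulocytes, red cell precursors and platelets than both progenitor groups. The 13 granulocyte markers summed to 3.86 to 8.69 FPKM in leukemias, 2710 to 10600 in Ebf1+/- and 628 to 3390 in WT cells, with Cebpe at 0 in all leukemias. The 8 megakaryocyte and platelet markers summed to 0.247 to 1.35, 143 to 4070 and 77 to 452 FPKM in the same 3 groups, with Gp6 at 0 in all leukemias. The 9 erythroid markers in the table summed to 0.576 to 1.06 FPKM in leukemias, 293 to 779 in Ebf1+/- and 129 to 730 in WT cells, with Car1 at 0 in all leukemias. The sums of monocyte and stromal markers were lower in leukemias as well, but not near 0. The 6 monocyte and macrophage markers summed to 58.1 to 158 FPKM in leukemias, 488 to 2040 in Ebf1+/- and 394 to 661 in WT cells, and the 8 markers of stroma and endothelium to 25.3 to 42.8, 50.2 to 83 and 74.6 to 139. In leukemias these sums rested mainly on Lyz2 (mean 84.6 FPKM) and Pecam1 (mean 33.9 FPKM). Adgre1 (0.104), Col1a1 (0.132), Col1a2 (0.0939) and Cdh5 (0.0304) were near 0 there. In WT cells the same genes averaged 1.17, 20.4, 14.1 and 2.06 FPKM. Summed T cell markers (15.2 to 98.6, 28.5 to 103 and 22.5 to 43.1 FPKM) and NK cell markers (23.4 to 58.7, 30.4 to 104 and 18.5 to 31.8) overlapped between the groups. Single markers did not all follow these sums. Against Ebf1+/- cells limma called Cd3g, Cd3e, Cd8b1, Ncr1 and Gzma lower in leukemia and 0 higher. Against WT it called Gzma lower and Klrd1 higher. Of the targeted factors, Pax5 averaged 119 ± 38.3 FPKM in leukemias, 179 ± 83.5 in Ebf1+/- and 222 ± 77.9 in WT cells, and Ebf1 averaged 66.6 ± 10.8, 71.2 ± 24.1 and 99.1 ± 14.3 (SD, n = 5, 3 and 3).

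A pair of Ebf1+/- libraries stood apart in ways that touch several of the 7 genes. Replicate 3 had the lowest B progenitor sum (2760 FPKM) and the highest platelet sum (4070 FPKM), of which 2030 was the platelet chemokine gene Ppbp. Replicate 1 had the highest granulocyte sum (10600 FPKM), and its 459 genes longer than 8000 bases lay at a median log2 deviation of -0.56 from the mean of all libraries, against 0.37 for its 3468 genes of up to 2000 bases. In WT replicate 3 the long genes deviated by 0.35 and the short genes by -0.11. Across genes, Ebf1+/- replicate 2 correlated at 0.989 with WT replicate 2, above every correlation within a group, of which the highest was 0.984. Results that rest on one of these libraries are given with and without it.

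Per kilobase of transcript, Nf1 and Braf were the scarcest of the 7 genes and Mapk3, Nras, Ptpn11 and Map2k1 the most abundant. In leukemias the group means ran from Nras (33.6 ± 3.93 FPKM) over Mapk3 (31.6 ± 3.77), Map2k1 (29.7 ± 1.43) and Ptpn11 (28.5 ± 2.86) to Hras (15.8 ± 1.34), Braf (4.14 ± 0.601) and Nf1 (2.6 ± 0.257; SD, n = 5). The first 4 genes changed places between leukemias, and their ranges overlapped, while Hras, Braf and Nf1 were the lowest 3, in that order, in 5 of 5. Both progenitor groups had Mapk3 as the gene with the highest mean, at 53.5 ± 9.3 FPKM in Ebf1+/- and 43.8 ± 3.74 in WT cells (n = 3 each). Braf and Nf1 were again the lowest pair in every library. Over all 11 libraries Mapk3 averaged 40.9 FPKM, at the 81.4th percentile of 11173 expressed genes, and Nf1 averaged 2.79 FPKM, at the 13.1th percentile.

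**Figure D1:**
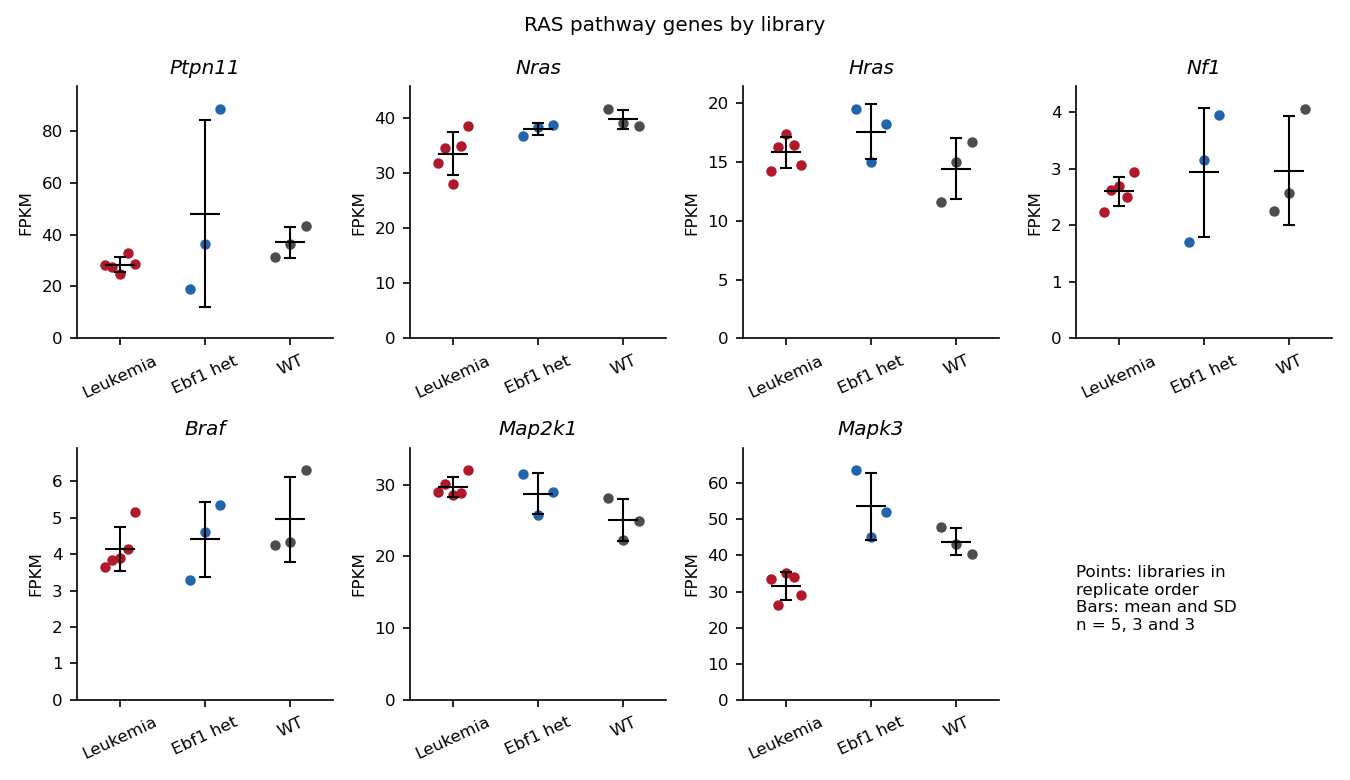
FPKM (vertical axes, each from 0) of the 7 genes in every library, grouped as leukemia (5 points), Ebf1 het, which is Ebf1+/- (3 points), and WT (3 points), with black bars for mean and SD. Mapk3 in leukemias (26.3 to 35.2 FPKM) lies below every progenitor library (40.4 to 63.5), and Ptpn11 in Ebf1+/- cells spans 19.2 to 88.4 FPKM.

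The first comparison asks how leukemic cells of doubly heterozygous mice differ from normal progenitors. Against WT, 2 of the 7 genes were called, Mapk3 and Ptpn11, both lower in leukemia, where limma called 44.8% of 10968 genes, 24.1% lower and 20.7% higher. The members were therefore called no more often than genes at large. Their median log2 fold change was -0.21, beside -0.04 over all genes. The leukemia and WT ranges were separate for 2 of the 7, Mapk3 and Map2k1, against 46.3% of all genes.

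Mapk3 encodes ERK1, the last kinase of the cascade, and lies on chromosome 7 from 126759601 to 126765819 on the plus strand (GRCm38, GENCODE M21; 8 coding exons). It is switched on when MEK phosphorylates a threonine and a tyrosine in the activation loop. The codons around them are shown because they are where Map2k1 and Mapk3, both among the 7 genes, meet in the cascade. Capitals mark the codons of the threonine, the residue between and the tyrosine, at chr7:126763449-126763475 (plus strand).
Mapk3: ggctttctgACGGAGTATgtggccaca

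Mapk3 reached 33.4, 26.3, 35.2, 33.9 and 28.9 FPKM in leukemia replicates 1 to 5, then 63.5, 45.1 and 52 in Ebf1+/- replicates 1 to 3, and 47.8, 43.2 and 40.4 in WT replicates 1 to 3. Every leukemia lay below every progenitor library, whereas the Ebf1+/- and WT ranges overlapped. Mapk3 was lower in leukemia than in WT cells by a log2 fold change of -0.47 (SE 0.12, adjusted p = 0.0106), a fold of 0.72. Against Ebf1+/- cells the log2 fold change was -0.74 (SE 0.15, adjusted p = 0.00849), a fold of 0.6. It was -0.61 (adjusted p = 0.0187) without Ebf1+/- replicate 1 and -0.75 (adjusted p = 0.026) without replicate 3, and no single library left out ended either Mapk3 call. Marker genes of other cells moved with it. All 13 granulocyte, 6 erythroid, 8 platelet and 3 stromal markers tested were called lower in leukemia in both comparisons, and Ebf1+/- replicate 1 had the most granulocyte RNA and the most Mapk3. Malat1, a nuclear RNA read here as a sign of RNA quality, was also lower in leukemia against WT (log2 fold change -0.85, adjusted p = 0.0333), and its difference from Ebf1+/- cells was not called (-0.42, adjusted p = 0.285). The part of other cells, RNA quality or transcript length in the Mapk3 difference was not tested. In bulk samples such as these, fewer cells of a type and less RNA per cell cannot be told apart.

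Ptpn11 encodes SHP2, a tyrosine phosphatase that promotes RAS activation downstream of many receptors, and lies on chromosome 5 from 121130533 to 121191397 on the minus strand (15 coding exons). It had 28.4, 27.7, 24.8, 32.8 and 28.6 FPKM in leukemias, 19.2, 36.5 and 88.4 in Ebf1+/- cells and 31.3, 36.5 and 43.2 in WT cells. Leukemias formed a narrow group whose highest library passed the lowest WT library, while the Ebf1+/- libraries surrounded both groups. Against WT the log2 fold change was -0.36 (SE 0.12, adjusted p = 0.0415). This call was the weaker of the 2. Without leukemia replicate 1, 2, 3 or 5 or WT replicate 2 or 3 the adjusted p was between 0.0657 and 0.158, and it was 0.0758 after quantile scaling and 0.455 with all 3 groups in 1 limma fit.

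Ptpn11 varied more among Ebf1+/- libraries than any other of the 7 genes in any group. Its SD on the log2 scale was 1.08, at the 96.4th percentile of the SDs of 11173 genes in that group, against 0.14 in leukemias and 0.23 in WT cells. The highest value, 88.4 FPKM, was in replicate 3, the library with the platelet marker sum of 4070 FPKM, and the lowest, 19.2 FPKM, was in replicate 1, the library with low levels of long genes (the Ptpn11 length in the table is 5611 bases). The part of either in these values was not tested. Leukemia against Ebf1+/- gave -0.47 (SE 0.38, adjusted p = 0.407), which became -0.98 (SE 0.29, adjusted p = 0.0451) without Ebf1+/- replicate 1 and 0.09 (SE 0.23, adjusted p = 0.809) without replicate 3. Ebf1+/- against WT gave 0.12 (SE 0.5, adjusted p = 0.958), which became -0.45 (SE 0.29, adjusted p = 0.769) without replicate 3. The direction of Ptpn11 in Ebf1+/- cells therefore rests on single libraries.

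**Figure D2:**
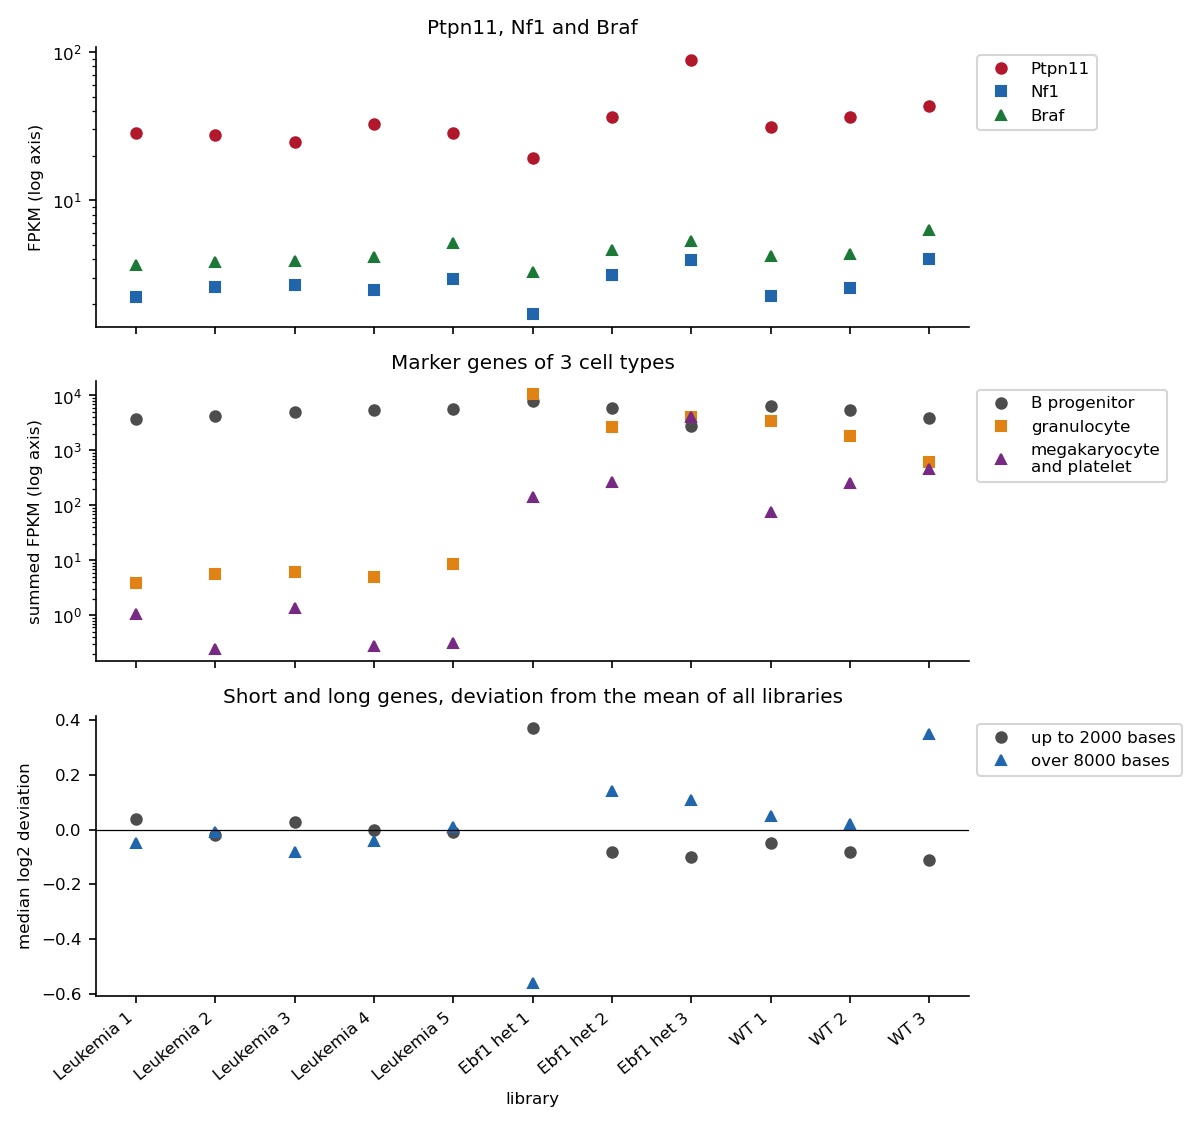
Top, FPKM (log axis) of Ptpn11, Nf1 and Braf in each of the 11 libraries (horizontal axis), where Ebf1 het 1 to 3 are the Ebf1+/- libraries; middle, summed FPKM (log axis) of marker genes of B progenitors, granulocytes, and megakaryocytes and platelets; bottom, median log2 deviation of short and long genes from the mean of all libraries. Ebf1+/- replicate 3 has the highest Ptpn11 (88.4 FPKM) and platelet sum (4070 FPKM), and Ebf1+/- replicate 1 has the lowest levels of all 3 genes and long genes at -0.56.

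Nras and Hras encode GTPases that differ mainly in their last residues, where a cysteine box receives the lipid that anchors the protein in the membrane. Nras lies on chromosome 3 from 103058285 to 103067914 on the plus strand (4 coding exons), and Hras on chromosome 7 from 141189105 to 141194005 on the minus strand (5 coding exons). The last 60 coding bases are shown, at chr3:103063390-103063449 on the plus strand and chr7:141191348-141191407 on the minus strand, because the 2 proteins differ mainly toward this end. Capitals mark the 4 codons of the cysteine box before the stop codon, which differ between the 2 genes only in the last codon. The other differences shown lie before the box and in the stop codon.
Nras: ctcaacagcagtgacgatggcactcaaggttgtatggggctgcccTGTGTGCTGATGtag
Hras: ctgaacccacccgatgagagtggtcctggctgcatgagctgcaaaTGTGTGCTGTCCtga
Each coding sequence had 570 bases, of which 75.1% were identical, and the longest run shared by the transcripts was 23 bases.

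Nras was at 31.8, 34.6, 28.1, 34.9 and 38.6 FPKM in leukemias, 36.8, 38.5 and 38.8 in Ebf1+/- cells and 41.7, 39.1 and 38.6 in WT cells. The highest leukemia met the lowest WT library, and the other 4 leukemias lay below all progenitor libraries. The difference did not pass the test against WT (log2 fold change -0.24, SE 0.11, adjusted p = 0.0962) or against Ebf1+/- cells (-0.18, SE 0.12, adjusted p = 0.314). Among progenitors Nras was the steadiest of the 7 genes, with a log2 SD of 0.04 in Ebf1+/- cells, at the 1.77th percentile of all genes, and of 0.06 in WT cells. Ebf1+/- against WT gave -0.06, with a 95% interval from -0.35 to 0.23.

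Hras was at 14.2, 16.3, 17.4, 16.4 and 14.7 FPKM in leukemias, 19.5, 15 and 18.2 in Ebf1+/- cells and 11.6, 15 and 16.7 in WT cells, and all 3 ranges overlapped. None of its log2 fold changes passed the test, at 0.14 for leukemia against WT (SE 0.13, adjusted p = 0.414), 0.27 for Ebf1+/- against WT (SE 0.19, adjusted p = 0.752) and -0.14 for leukemia against Ebf1+/- (SE 0.13, adjusted p = 0.467). Hras made up 32.1 ± 3.9% of the summed Hras and Nras RNA in leukemias, 31.5 ± 3.37% in Ebf1+/- and 26.5 ± 4.32% in WT cells. The difference of 5.6 percentage points between leukemia and WT gave an exact permutation p of 0.107 (n = 5 and 3). With 1 library left out it ran between 3.2, without WT replicate 1 (exact permutation p = 0.333), and 7.41, without WT replicate 3 (exact permutation p = 0.0952). Without leukemia replicate 5 it was 6.75, with an exact permutation p of 0.0286 that was 0.114 after adjustment.

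Nf1 encodes neurofibromin, the GTPase-activating protein that restrains RAS, and lies on chromosome 11 from 79339693 to 79581612 on the plus strand (58 coding exons). It was the lowest of the 7 genes in every library, at 2.24, 2.62, 2.7, 2.5 and 2.94 FPKM in leukemias, 1.71, 3.15 and 3.95 in Ebf1+/- cells and 2.26, 2.58 and 4.06 in WT cells. The leukemias overlapped with both progenitor groups. Leukemia against WT gave a log2 fold change of -0.12 (95% interval -0.51 to 0.27, adjusted p = 0.606), Ebf1+/- against WT -0.03 (-0.72 to 0.67, adjusted p = 0.983) and leukemia against Ebf1+/- -0.09 (-0.57 to 0.4, adjusted p = 0.802). Within the progenitor groups the lowest value was in the library with low long genes and the highest WT value in the library with high long genes, and Nf1 has the longest transcript of the 7 (11847 bases in the table). The part of transcript length was not tested. Evi2a, Evi2b and Omg lie within the span of Nf1 on the opposite strand and share no exon bases with it in the annotation.

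Braf encodes the B-RAF kinase, which active RAS recruits to phosphorylate MEK, and lies on chromosome 6 from 39603237 to 39725463 on the minus strand (22 coding exons). It was at 3.65, 3.84, 3.89, 4.14 and 5.17 FPKM in leukemias, 3.3, 4.6 and 5.34 in Ebf1+/- cells and 4.25, 4.33 and 6.3 in WT cells, with overlap between all groups. The log2 fold changes were -0.21 for leukemia against WT (SE 0.16, adjusted p = 0.312), -0.14 for Ebf1+/- against WT (SE 0.23, adjusted p = 0.872) and -0.06 for leukemia against Ebf1+/- (SE 0.18, adjusted p = 0.823). Its lowest and highest progenitor values were in the same 2 libraries as those of the long genes, Ebf1+/- replicate 1 and WT replicate 3. Braf shares 146 exon bases (1.05% of its exon bases) with Ndufb2 on the opposite strand, whose reads could not be told apart there if strand was not used in counting.

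Braf was scarcer per kilobase than Araf, another RAF kinase gene, in all groups. Araf was at 15.9 ± 1.95 FPKM in leukemias, 17.6 ± 3.97 in Ebf1+/- and 16.9 ± 2.84 in WT cells, with no difference called.

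Map2k1 encodes MEK1, the kinase between RAF and ERK, and lies on chromosome 9 from 64185770 to 64253631 on the minus strand (11 coding exons). Map2k1 was at 29, 30.1, 28.6, 28.8 and 32 FPKM in leukemias, 31.5, 25.8 and 29 in Ebf1+/- cells and 28.1, 22.3 and 24.9 in WT cells. Every leukemia was above every WT library, by a small margin, and the leukemia and Ebf1+/- ranges overlapped. The log2 fold change against WT was 0.24 (SE 0.1) and narrowly missed the threshold (adjusted p = 0.0668). It passed after quantile scaling (0.31, adjusted p = 0.0227), after median-ratio scaling (0.27, adjusted p = 0.0413) and without WT replicate 1 (0.32, adjusted p = 0.0287). Against Ebf1+/- cells it was 0.05 (SE 0.11, adjusted p = 0.783).

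Map2k2, which encodes MEK2, went the other way. It was at 39.4, 38.9, 43.7, 45.6 and 43.2 FPKM in leukemias, 59.5, 50.5 and 54.1 in Ebf1+/- cells and 53.5, 51.5 and 50.6 in WT cells, and no leukemia reached any progenitor library. Map2k2 was called lower against WT (-0.29, SE 0.08, adjusted p = 0.0196) and against Ebf1+/- cells (-0.37, SE 0.11, adjusted p = 0.0391). The first call was lost without WT replicate 1 or 2 (adjusted p up to 0.0584), and the second without any leukemia, without Ebf1+/- replicate 1 or 3 (adjusted p up to 0.088) and after quantile scaling (adjusted p = 0.0524). The Map2k1 share of the MEK pair, which does not depend on how libraries are scaled, was 42.4, 43.6, 39.6, 38.7 and 42.6% in leukemias, 34.6, 33.8 and 34.9% in Ebf1+/- cells and 34.4, 30.2 and 33% in WT cells. Each leukemia was above each progenitor library. The share was 8.85 percentage points higher than in WT and 6.93 higher than in Ebf1+/- cells, with an exact permutation p of 0.0179 for each, the smallest that 5 against 3 libraries allow, and 0.0714 after adjustment over 12 share tests, so that neither passed the threshold of 0.05. Leaving out any 1 library kept these differences between 7.67 and 9.8 points against WT and between 6.37 and 7.61 against Ebf1+/- cells. Coding sequences of the 2 MEK genes were 78.3% identical over 1178 aligned bases, with a longest shared run of 56 bases, so that some short reads could fit both.

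**Figure D3:**
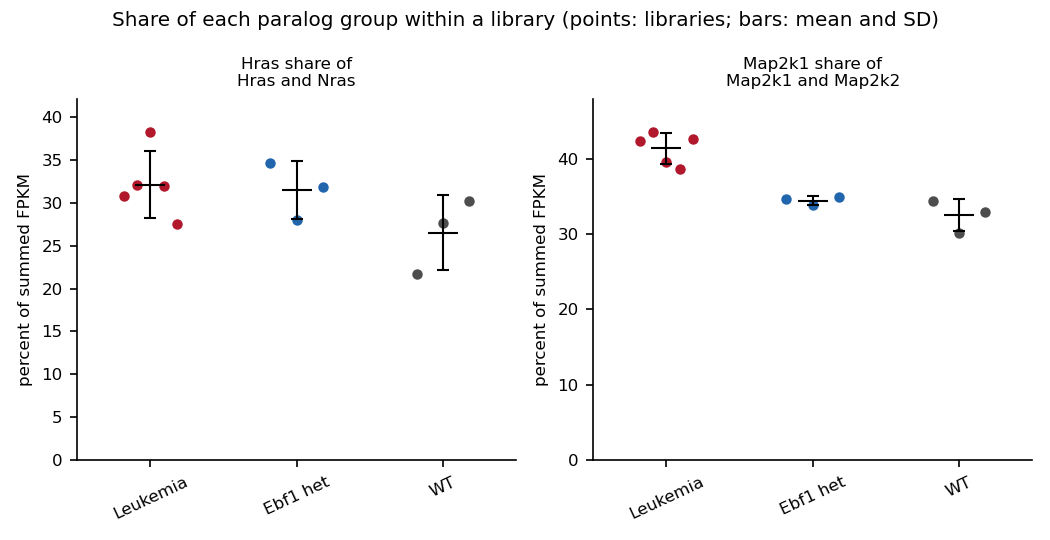
Share of summed FPKM (percent, axes from 0) of Hras within Hras and Nras and of Map2k1 within Map2k1 and Map2k2, with 1 point per library and bars for mean and SD in leukemia, Ebf1 het (Ebf1+/-) and WT. The Map2k1 share in leukemias (38.7 to 43.6%) lies above both progenitor groups (30.2 to 34.9%), and the Hras share overlaps between leukemia and WT.

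The second comparison asks whether loss of 1 Ebf1 copy alone goes with a change. None of the 7 genes was called in Ebf1+/- against WT cells, where limma called 0.0% of 11167 genes. Without adjustment 0 of the 7 genes and 863 of all genes had p under 0.05, voom on the recovered reads also called 0 of the 7, and the smallest adjusted p of any gene was 0.0552. None of the 7 had separate ranges, against 15.6% of all genes. The members' log2 fold changes ran between -0.14 (Braf) and 0.27 (Hras and Mapk3), with a median of 0.12 beside 0.03 over all genes. The intervals were widest for Ptpn11, from -1.06 to 1.29, and narrowest for Nras. The Mapk3 log2 fold change was 0.27 (95% interval -0.13 to 0.67, adjusted p = 0.736), and that of Map2k1 0.19 (-0.17 to 0.56, adjusted p = 0.774). Both genes had the higher value in the Ebf1+/- library in 3 of 3 same-numbered pairs with WT. With the replicate number as a block the adjusted p was 0.358 for Mapk3 (SE 0.13) and 0.417 for Map2k1 (SE 0.11), so that neither was called.

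The third comparison sets leukemias against Ebf1+/- cells. Only 1 of the 7 genes, Mapk3, was called, lower in leukemia, where limma called 21.6% of 11161 genes. Mapk3 was also the 1 member with separate ranges, against 29.1% of all genes. The median log2 fold change of the 7 was -0.14, beside -0.02 over all genes. The leukemia libraries enter the first and the third comparison and the other groups enter 2 comparisons each, so the comparisons are not independent of each other.

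**Figure D4:**
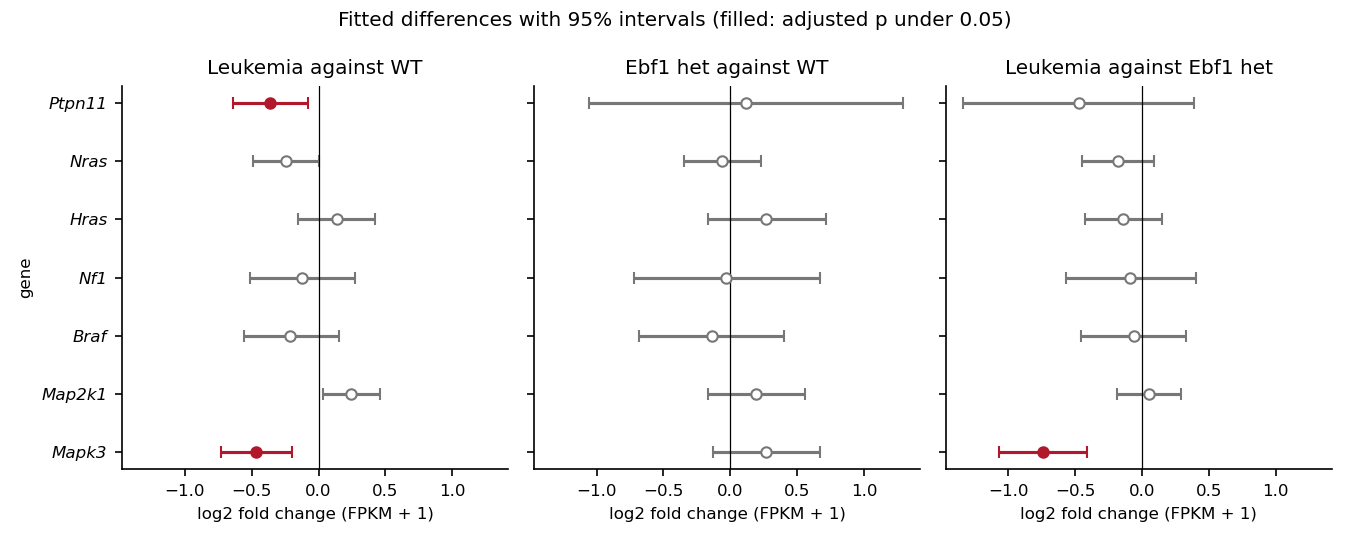
Log2 fold changes of FPKM + 1 (horizontal axis) with 95% intervals for the 7 genes (vertical axis, ordered along the cascade) in the 3 comparisons; filled red points have an adjusted p under 0.05. Mapk3 is lower in leukemia against both WT (-0.47) and Ebf1+/- cells (-0.74), Ptpn11 against WT (-0.36), and no gene is called between Ebf1+/- and WT.

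The 7 genes were set in the wider pathway with 9 lists of 84 other genes. Against WT 74 could be tested, and limma called 35, with 18 higher and 17 lower in leukemia and a median log2 fold change of 0.03. This was near the share of all genes, of which 44.8% were called, 20.7% higher and 24.1% lower. In Ebf1+/- against WT cells 0 of 75 were called by limma on FPKM or by voom on recovered reads. Of the 75, 6 had an unadjusted p under 0.05, beside 7.73% of all genes. In leukemia against Ebf1+/- cells 17 of 72 were called, 11 higher and 6 lower, beside 21.6% of all genes. The list counts below are to be read beside these shares. Calls in both directions were found within 6 of the 9 lists for leukemia against WT, and within 1 of 9 for leukemia against Ebf1+/- cells.

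At the level of RAS itself, 4 of 5 other RAS family GTPases were tested, with 1 higher and 2 lower in leukemia than in WT. Rras2, a relative of R-Ras, rose to 45.6 ± 9.26 FPKM in leukemias, against 18 ± 3.65 in WT cells (log2 fold change 1.28, adjusted p = 0.000673), and stood at 26.1 ± 9.72 in Ebf1+/- cells. Rit1, a GTPase related to RAS, fell to 6.12 ± 1.08 FPKM, against 9.19 ± 0.996 (-0.53, adjusted p = 0.0173), a call lost without WT replicate 1 (adjusted p = 0.069) and with all 3 groups in 1 fit (adjusted p = 0.092). Leukemia against Ebf1+/- narrowly missed the threshold for Rras2 (0.84, adjusted p = 0.0508) and Rit1 (-0.79, adjusted p = 0.0505). Of 12 adaptors and exchange factors 1 was higher and 5 lower, where 44.8% of all genes were called. Rasgrp1, an exchange factor of lymphocytes that responds to diacylglycerol, fell to 6.67 ± 2.66 FPKM in leukemias, against 20.9 ± 5.19 in WT cells (-1.55, adjusted p = 0.00158). It was also called lower against Ebf1+/- cells, at 14.7 ± 3.2 FPKM (-1.07, adjusted p = 0.021). That call was lost without Ebf1+/- replicate 1 or 2 (adjusted p up to 0.073). Rasgrp2, a relative of Rasgrp1 that acts mainly on Rap GTPases, rose to 158 ± 31.5 FPKM, against 76.9 ± 11.2 (1.02, adjusted p = 0.00172). Rasgrp2 was also at 148 ± 35.9 FPKM in Ebf1+/- cells, which did not pass the test against WT (0.92, adjusted p = 0.403). For Rasgrp2, leukemia against Ebf1+/- was not called either (0.1, adjusted p = 0.76). Shc1, an adaptor that links receptors to exchange factors, fell in leukemia against WT (-0.64, adjusted p = 0.000525) and against Ebf1+/- cells (-0.49, adjusted p = 0.0144).

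Among the negative regulators, 2 of the 7 other GTPase-activating proteins tested were higher in leukemia than in WT and 0 were lower. Of all genes 44.8% were called. Rasal3 rose to 55.4 ± 9.48 FPKM in leukemias, against 20.5 ± 3.21 in WT cells (1.39, adjusted p = 0.000237), and was higher against Ebf1+/- cells as well (1.04, adjusted p = 0.00439). Rasa4 rose to 23.9 ± 7.02 FPKM, against 10.1 ± 1.68 (1.12, adjusted p = 0.00778). Rasa4 was at 18.7 ± 3.26 FPKM in Ebf1+/- cells, and leukemia against Ebf1+/- was not called (0.29, adjusted p = 0.301). Nf1 itself, at 2.6 ± 0.257 FPKM in leukemias, was far below Rasal3 and Rasa4. Of 12 scaffolds and regulators 2 were higher and 3 lower against WT. Pebp1, the RAF kinase inhibitor protein, rose to 216 ± 23.1 FPKM, against 129 ± 25.1 (0.75, adjusted p = 0.00299). Ppp1cc, a catalytic subunit of the phosphatase that helps to activate RAF, fell to 117 ± 7.18 FPKM, against 164 ± 10.6 (-0.49, adjusted p = 0.00225). Cblb, a ubiquitin ligase that limits receptor signals, fell to 9.07 ± 2.3, against 17.7 ± 1.96 (-0.92, adjusted p = 0.00393). Against Ebf1+/- cells Pebp1 was called higher (0.49, adjusted p = 0.0211). That call was lost without leukemia replicate 3 or Ebf1+/- replicate 2 (adjusted p up to 0.0684). Neither Ppp1cc (-0.19, adjusted p = 0.294) nor Cblb (-0.33, adjusted p = 0.28) was called against Ebf1+/- cells. None of the 9 genes for lipid processing and trafficking of RAS was called in any comparison by limma or voom. Without adjustment 3 of the 9 had a limma p under 0.05 in leukemia against WT and 0 in the other comparisons. Of all genes 52.5% had such a p in leukemia against WT, 35.9% in leukemia against Ebf1+/- and 7.73% in Ebf1+/- against WT.

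Of 3 other RAF, MEK and KSR genes tested, 1 was lower and 0 higher against WT, Map2k2, as given above. Downstream of ERK the calls ran in both directions. Elk3, an Ets factor that ERK phosphorylates, rose to 38.9 ± 3.61 FPKM, against 22.5 ± 2.96 (0.77, adjusted p = 0.000821), and Mknk2, a kinase that ERK activates, to 215 ± 28.7, against 132 ± 11.4 (0.69, adjusted p = 0.00274). Srf, the partner of such Ets factors on immediate early genes, fell to 17.3 ± 1.41 FPKM, against 23.3 ± 1.69 (-0.41, adjusted p = 0.00821). Against Ebf1+/- cells Elk3 was called higher (0.88, adjusted p = 0.00363), and Mknk2 (0.49, adjusted p = 0.0521) and Srf (-0.4, adjusted p = 0.0665) were not called. Other effectors of RAS had 3 higher and 1 lower of 6. The lower one, Ralgds, an exchange factor for Ral GTPases, was called narrowly (-0.59, adjusted p = 0.0461) and lost its call with any of 6 of the 8 libraries left out (adjusted p up to 0.174) and in 4 of 7 other settings. Rgl1, of the same family, rose to 46.2 ± 9.41 FPKM, against 12.1 ± 0.248 (1.83, adjusted p = 9.56e-05), with Rassf2 at 0.91 (adjusted p = 0.00031) and Tiam1, an exchange factor for Rac, at 0.83 (adjusted p = 0.0158, and 0.0687 without WT replicate 1). Against Ebf1+/- cells Rgl1 and Rassf2 were called higher, and Tiam1 (0.44, adjusted p = 0.301) and Ralgds (-0.23, adjusted p = 0.474) were not called.

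Of 12 genes known as transcriptional outputs of ERK, 7 were called higher and 2 lower, where 44.8% of all genes were called, with a median log2 fold change of 0.98 against WT. Ccnd1, the cyclin D1 gene, reached 53.8 ± 13.2 FPKM in leukemias, 5.72 ± 3.22 in Ebf1+/- and 5.14 ± 2.71 in WT cells (3.22 against WT, adjusted p = 7.35e-05). The phosphatase gene Dusp4 stood at 5.01 ± 1.39, 0.69 ± 0.853 and 0.358 ± 0.0857 FPKM, and the Ets factor gene Etv5 at 19.4 ± 4.51, 4.23 ± 0.813 and 5.55 ± 0.592 FPKM. Egr1, an immediate early gene, and Spry2, a feedback inhibitor, were the 2 lower ones. Against Ebf1+/- cells 5 of 10 tested were higher and 0 lower, where 21.6% of all genes were called. The list has 16 genes, and the minimum mean of 1 FPKM left the others untested, on both sides. Egr1 (0.434 FPKM in leukemias, 1.77 in Ebf1+/- cells), Fos (0.288 and 1.65) and Ier3 (0.164 and 2.14) were lower in leukemia. Etv4 (1.36 and 0.028) and Spry4 (0.901 and 0.337) were higher, and Fosl1 (0.444 and 0.346) overlapped. Not all of the calls against WT were firm. Spry1, another feedback inhibitor and 1 of the 7 higher, lost its call without leukemia replicate 1, 2 or 4 or WT replicate 1 or 2 (adjusted p up to 0.152), without a filter, in the joint fit of all 3 groups and with voom. Spred2, also among the 7, lost it without WT replicate 1 (adjusted p = 0.0612) and in the joint fit (adjusted p = 0.0887), and Spry2 without WT replicate 1 (adjusted p = 0.0732).

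**Figure D5:**
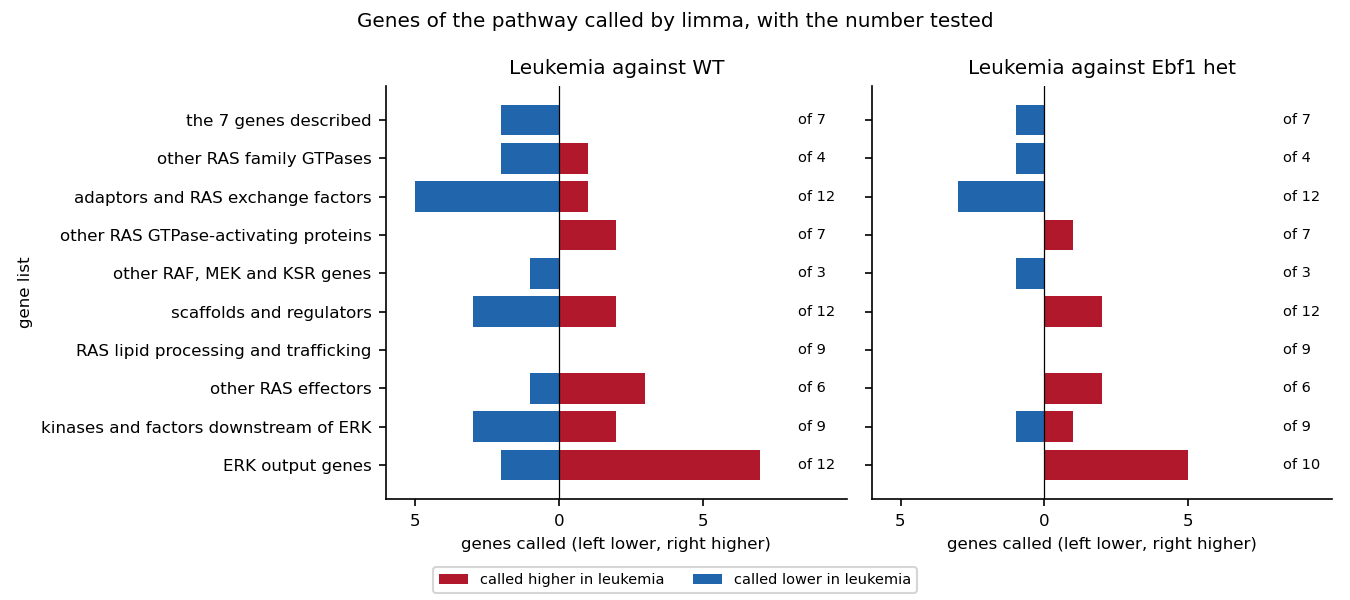
Number of genes called by limma (horizontal axis, higher in leukemia to the right and lower to the left) in the 7 genes described and in 9 lists of other pathway genes, for leukemia against WT and leukemia against Ebf1 het (Ebf1+/-), with the number tested beside each bar. The ERK output genes have 7 higher and 2 lower of 12 against WT, and the other RAF, MEK and KSR genes have 1 lower and 0 higher of 3. Of all genes 44.8% were called against WT and 21.6% against Ebf1+/-.

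Profiles like those of the 7 genes were sought among 11173 genes over the 11 libraries, by the root mean square difference between centred log2 values. Nras was the gene most closely matched, by Spg7 at 0.05 and Dync1li2 at 0.07. Map2k1 was matched by Bbs10 (0.07) and Cr1l (0.09), Hras by Memo1 and Glo1 (0.08 each), and Mapk3 by Lactb (0.09) and Zfp580 (0.12). Lactb averaged 8.39 FPKM in leukemias, 13.5 in Ebf1+/- and 12.7 in WT cells. Nf1 was matched by Prkaa1 and Nup98 (0.1 each) and Braf by Scarb2 (0.1) and Rrn3 (0.11). Ptpn11 had the most distant matches, Nomo1 at 0.18 and Epb4.1 at 0.19, which shared its high Ebf1+/- mean at 58.7 and 32.7 FPKM, against 38 and 27.3 in WT cells. Genes that vary little, such as Nras, match many others closely by this measure. Bbs10 (group means of 0.861 to 1.2 FPKM) and Zfp580 (0.932 to 2.21) were low genes, whose changes are understated by log2(FPKM + 1).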

How the data were processed

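RNA of 11 mouse libraries was sequenced, and the authors deposited 1 table of FPKM values, 1 column per library. For leukemia and WT libraries BWA 0.7.12 is named, and for Ebf1+/- libraries TopHat2 with Cufflinks, all on build mm10 (GRCm38), per the submitters' processing notes. The read counter, annotation and use of strand were not given in the sources used here, and the difference in tools coincides with the Ebf1+/- group. Dividing out a gene length and a library size turned the deposited FPKM of all 17380 genes above 0 into whole reads, within 0.001 read.

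Tests used log2(FPKM + 1) of genes whose mean was 1 FPKM or more, with limma 3.58.1 on R 4.3.3 (trend, two-sided, only the 2 groups compared), and adjusted p-values are from limma with Benjamini-Hochberg adjustment over all genes tested. Shares within a library were compared with exact permutation tests (SciPy 1.17.1), adjusted over 12 tests, of which 6 are reported here. Locations and sequences came from GENCODE M21, and sequences were aligned with Biopython 1.88. Figures used Matplotlib 3.10.9.

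Leukemias were single mice and progenitor libraries were pools, so p-values measure the spread between mice in one group and between pools in the others. Same-numbered Ebf1+/- and WT libraries deviated together from their group means (correlations over 11167 genes of 0.65, 0.33 and 0.69 for numbers 1 to 3, each above 0.1). The main fit of Ebf1+/- against WT left this pairing out. A fit with the replicate number as a block was run beside it, and values are unpaired unless the block is named. No label gives a common day or batch for these libraries, and deviations from a mean of 3 are not independent. The replicate block changed no member call in that comparison.

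The members, lists and alternatives were chosen with earlier results of these data known. Some genes of the lists and shares are not reported here. Named were the members, Araf and Map2k2, genes among the 3 of smallest p called in each list against WT, and the 2 genes most like each member. Egr1, Spry1, Spry2, Spred2, Ralgds, Malat1, Fos, Ier3, Etv4, Spry4, Fosl1 and some markers of cell types were added after their values were seen. Reads of close paralogs and of overlapping genes could not be told apart.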

Additional observations from a re-analysis of the deposited data

How the results depend on the processing

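Alternatives were a pseudocount of 0.1, no filter, a filter of 5 FPKM, median-ratio and quantile scaling, a joint fit of all 3 groups, voom on recovered reads, a replicate block and leaving out each library. The 2 member calls of leukemia against WT became 1 (Mapk3) in the joint fit, 1 to 3 with 1 library left out, and 0 with the replicate block, where Mapk3 stood at -0.46 (adjusted p = 0.053) and Ptpn11 at -0.43 (adjusted p = 0.0865). In leukemia against Ebf1+/- cells the 1 call became 0 with the replicate block (Mapk3 -0.74, adjusted p = 0.0565) and 1 to 2 with 1 library left out, and the block called 944 genes in all in place of 2409. Same-numbered leukemia and progenitor libraries did not deviate together (correlations of -0.05, 0.07 and -0.14 with WT and 0.03, 0.06 and -0.1 with Ebf1+/- libraries), so these samples share only a number. Ebf1+/- against WT had 0 genes called, but 3 at a pseudocount of 0.1, 2 after median-ratio scaling, 23 in the joint fit and 0 to 5 with 1 library left out, with 0 of the 7 members called in each.

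With 1 library left out, the Hras share difference of leukemia ran between 3.2 and 7.41 points against WT and between -1.15 and 2.2 against Ebf1+/- cells. Log2 fold changes that took both signs, and were not called except once, were in leukemia against WT Hras (-0.0 without WT replicate 1, up to 0.24) and Nf1 (-0.24 to 0.07, with 0.07 without WT replicate 3). In Ebf1+/- against WT these were Ptpn11 (-0.45 without Ebf1+/- replicate 3, up to 0.62), Nf1 (-0.22 to 0.22) and Braf (-0.26 to 0.02), where Nf1 stood at 0.16 and Braf at 0.01 without WT replicate 3. In leukemia against Ebf1+/- they were Nf1 (-0.33 to 0.1), Braf (-0.22 to 0.06), Map2k1 (-0.03 without Ebf1+/- replicate 2, up to 0.11) and Ptpn11 (-0.98, which was called, without Ebf1+/- replicate 1, to 0.09 without replicate 3). Quantile scaling also turned Nf1 (0.0 against WT and 0.17 against Ebf1+/-) and Braf (0.07 against Ebf1+/-). The cause was not tested. The genes of fewest reads were Nf1, Braf and Hras, with 226 to 889 reads in a library.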
